A study of Homo sapiens with 6 samples.

Results

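Expression of 9 genes of the hyaluronan and aggrecan matrix was compared between control UE7T-9 cells and a SRRM4 KO clone of the same line. The genes were taken by symbol from the 58735 genes of the count table: the lecticans ACAN, VCAN, BCAN and NCAN, the link proteins HAPLN1 and HAPLN3, and the hyaluronan synthases HAS1, HAS2 and HAS3. UE7T-9 is a human mesenchymal stem cell (MSC) line from bone marrow. The study was about how MSCs enter decellularized bone, and it measured RNA by non-stranded mRNA-seq in 3 control libraries (genotype WT) and 3 SRRM4 KO libraries. Both groups were grown in D-MEM. SRRM4, a neural splicing regulator, was targeted with a lentiviral CRISPR v2 vector, and the KO cells were selected with puromycin, then diluted to 1 cell per well and cloned. The KO group is therefore 1 clone, the labels give the control libraries as WT and name no vector control, although the authors' discussion allows that the control cells may have been altered by lentivirus, and the authors described SRRM4 protein as reduced without complete loss. Effects of the knockout, of the vector and selection, and differences of that clone from the parental cells cannot be told apart.

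Hyaluronan is a long, unsulfated sugar chain that HAS enzymes make at the plasma membrane and push out of the cell. Lecticans are large proteoglycans whose globular head binds hyaluronan, and link proteins clamp that contact, so that many lecticans sit along a single hyaluronan chain. Aggrecan aggregates of this kind give cartilage its swelling pressure, versican is the common lectican of loose connective tissue, and brevican and neurocan belong mainly to the brain.

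The libraries held between 21496117 and 23868323 counts, and a count of 0 allows up to 3 counts, or 0.123 to 0.139 CPM, for counting error only. CPM are counts scaled to a common library size, here adjusted by the trimmed mean of M values (TMM). Control replicate 1 stood apart from the other libraries, with 22403 genes counted against 20127 to 20674. SRRM4 itself had 0 counts in all 6 libraries, so its RNA does not check the KO. All 8 mesenchymal stromal markers were over 1 CPM, as were 7 of 14 chondrocyte markers, 3 of 11 neural and glial markers and 3 of 11 blood, endothelial and epithelial markers. Differences were tested with edgeR's quasi-likelihood test, with p-values adjusted by Benjamini-Hochberg over 15341 genes. A gene passed the test with an adjusted p under 0.05, and was called when its log2 fold change (SRRM4 KO minus control) was also beyond 1.

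ACAN and HAPLN3 lie side by side on chromosome 15 and were the only called genes of the 9, so the bases just before their transcription starts are shown (RefSeq, GRCh38.p14, 5′ to 3′ on the gene's strand, outside annotated exons). RefSeq promoters were matched for 7 of the 9 genes, all but NCAN and HAS2. The ACAN sequence is chr15:88803186-88803435 (plus strand) and the HAPLN3 sequence is chr15:88895627-88895794 (minus strand). Capitals mark GC boxes, searched as GGGCGG on both strands, which reads CCGCCC where the box lies on the other strand.
ACAN: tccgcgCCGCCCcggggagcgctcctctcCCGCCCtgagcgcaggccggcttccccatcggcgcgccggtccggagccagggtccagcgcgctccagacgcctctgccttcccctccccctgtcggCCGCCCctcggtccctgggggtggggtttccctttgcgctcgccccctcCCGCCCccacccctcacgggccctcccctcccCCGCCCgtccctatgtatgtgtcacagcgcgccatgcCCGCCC
HAPLN3: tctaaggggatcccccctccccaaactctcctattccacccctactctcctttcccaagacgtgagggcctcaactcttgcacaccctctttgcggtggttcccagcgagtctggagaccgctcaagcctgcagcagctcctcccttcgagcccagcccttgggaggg
The 250 bases before ACAN hold 6 GC boxes and 28 CpG dinucleotides at 77.2% GC, which puts its CpG number at the 84.1 percentile of 35116 promoter windows. The median window has 11 CpG and 58% GC. The 250 bases before HAPLN3, of which the 168 outside exons are printed, have 11 CpG at 60.4% GC and no GC box. At least 1 GC box occurs in 42.6% of the windows. Neither promoter held the TATA box letters TATAAA (10.7% of windows), the SOX core letters AACAAT (8.98%) or the CCAAT box letters ATTGG (32%), each searched on both strands.

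Of the 9 genes, 7 had enough counts to be tested. ACAN and HAPLN3 were called lower in SRRM4 KO cells and 0 were called higher, where 7.14% of all tested genes were called lower and 5.45% higher (12.6% in either direction). HAPLN1 also passed the test at a smaller fold, which gives 3 lower and 0 higher at any fold, against 20.9% and 20.7% of all tested genes (41.6% in either direction). DESeq2 also called 2 of the 9 lower and 0 higher, against 1200 lower and 873 higher of the 27405 genes it fitted. VCAN, BCAN, HAS2 and HAS3 did not pass the edgeR test. The 6 libraries separated by group for 6 of the 7 tested genes, all but VCAN, with 5 lower and 1 higher in KO cells. Of all tested genes 51.8% separated in this way, 25.9% in each direction. NCAN and HAS1 were too low to test. The median log2 fold change of the 7 tested genes was -0.77, against -0.01 over all 15341.

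**Figure D1:**
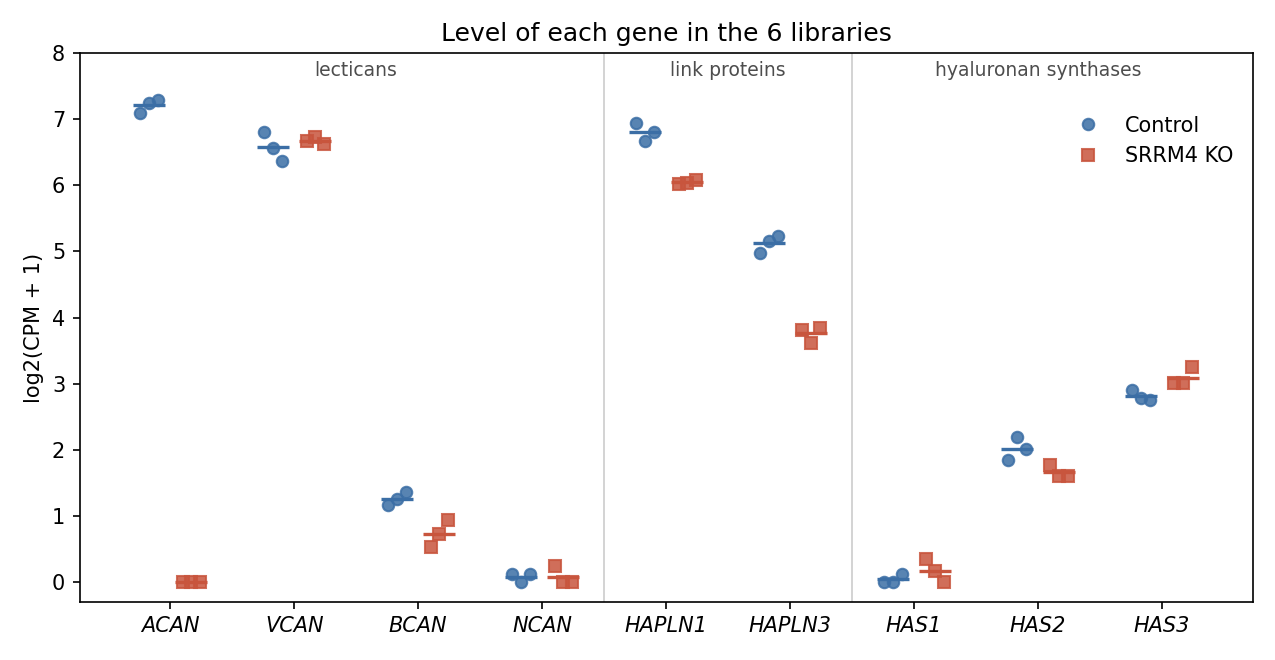
Level of each of the 9 genes in the 6 libraries, as log2(CPM + 1), with 1 point per library, a line at the group mean, and control (circles) beside SRRM4 KO (squares). ACAN falls from 136 to 155 CPM in the control libraries to 0 in the 3 KO libraries, and the points of VCAN overlap.

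Aggrecan showed the largest difference of the 9 genes. ACAN (ENSG00000157766, chr15:88803442-88875354, plus strand, GRCh38) had 2947, 3247 and 3460 counts in control replicates 1 to 3, and 0 counts in each of the 3 KO libraries. All control libraries were thus far above the KO libraries, with 147 ± 10.01 CPM (SD, n = 3) against 0. ACAN was at least 1080-fold lower in SRRM4 KO cells, taking 3 counts per library as the limit of a 0, and its edgeR adjusted p was 5.43e-13. Counts were summed over 9 annotated transcripts and 10909 exonic bases. No other annotated gene overlaps ACAN. In a bulk sample, fewer cells that express a gene and less RNA per cell cannot be told apart.

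VCAN, the other abundant lectican, was at a similar level in both groups. VCAN (ENSG00000038427, chr5:83471465-83582303, plus strand) had 111, 93.1 and 81.6 CPM in the control libraries and 101, 105 and 97.9 CPM in the KO libraries. The KO values lay inside the control range. The log2 fold change was 0.09 (SE 0.11), with a 95% interval from -0.14 to 0.31 and an edgeR adjusted p of 0.544, so a 2-fold change in either direction lies outside the interval while a small one does not. Without control replicate 3 it was -0.01, with an adjusted p of 0.93. VCAN has 12 annotated transcripts, and isoforms that differ in their chondroitin sulfate exons were summed. The antisense gene VCAN-AS1 had 0 counts in every library.

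The brain lecticans were scarce. BCAN (brevican, ENSG00000132692, chr1:156641390-156659532, plus strand) had 27, 30 and 35 counts in the control libraries and 10, 16 and 20 in the KO libraries. All KO values were under the control values, at 0.672 ± 0.230 CPM against 1.40 ± 0.162. The log2 difference of -1.06 (SE 0.45) did not pass the test (edgeR adjusted p = 0.0745), and its 95% interval ran from -2.02 to -0.09. BCAN shares 328 and 354 exonic bases with the antisense genes AL365181.3 and AL590666.2, and without strand the reads of these genes cannot be told apart. AL365181.3 had 102, 153 and 208 counts in the control libraries and 61, 94 and 121 in the KO libraries. NCAN (neurocan, ENSG00000130287, chr19:19211973-19252233, plus strand) had 2, 0 and 2 counts in the control libraries and 4, 0 and 0 in the KO libraries, so a difference was not detectable at this depth.

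Levels of different genes were compared after division by the exonic length, as CPM per kb. In control cells ACAN took 61.6%, 67.8% and 70.9% of the summed lectican level, and VCAN took 37.1%, 30.8% and 27.4%. In SRRM4 KO cells VCAN took 98.3%, 98.2% and 97.3%. The VCAN share thus went from 31.8 ± 4.89% to 97.9 ± 0.553% at a VCAN level that was not shown to differ. The summed lectican level was 20.2 ± 0.162 CPM per kb in control cells and 6.98 ± 0.213 in SRRM4 KO cells, a log2 difference of -1.54 or 2.90-fold lower. The groups did not overlap for this sum or for either share, and each exact two-sided permutation test gave p = 0.1, the smallest that 3 against 3 libraries allow.

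**Figure D2:**
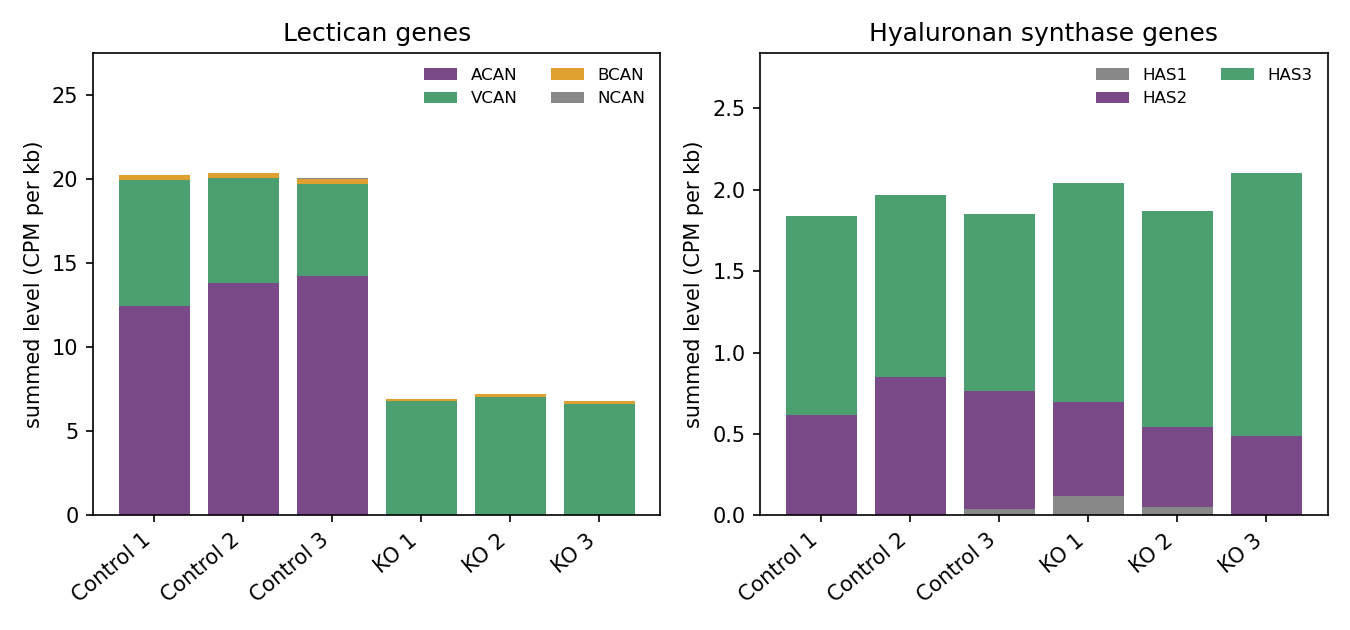
Level of each lectican (left) and each hyaluronan synthase (right) in every library, stacked and in CPM per kb of exonic length. The lectican columns shrink from about 20.2 to 6.98 CPM per kb with the loss of ACAN, and the synthase columns stay between 1.84 and 2.10.

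Both link protein genes with counts fell in SRRM4 KO cells, by different amounts. HAPLN3 (ENSG00000140511, chr15:88877288-88895626, minus strand), a link protein found in many tissues, had 30.5, 34.7 and 36.5 CPM in the control libraries and 13.1, 11.3 and 13.4 CPM in the KO libraries. Each KO value was under each control value. HAPLN3 fell by 1.43 on the log2 scale (SE 0.13, 95% interval -1.70 to -1.16, edgeR adjusted p = 3.39e-07), or 2.70-fold. Tested against the 2-fold threshold itself (edgeR's glmTreat), its adjusted p was 0.00838.

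HAPLN1 (ENSG00000145681, chr5:83637805-83721613, minus strand), the link protein of cartilage aggregates, had 121, 101 and 110 CPM in the control libraries and 64.2, 64.3 and 66.9 CPM in the KO libraries. The groups did not overlap and the KO libraries were close to each other. HAPLN1 fell by 0.77 on the log2 scale (SE 0.091, 95% interval -0.96 to -0.58, edgeR adjusted p = 7.1e-06), or 1.70-fold, under the fold threshold for a call. HAPLN1 and HAPLN3 share no exonic bases with another annotated gene.

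In vertebrate genomes each lectican gene lies next to a link protein gene, and the 4 pairs were found in the annotation of these counts. ACAN and HAPLN3 are 1933 bases apart, VCAN and HAPLN1 55501, BCAN and HAPLN2 15664, and NCAN and HAPLN4 3407. HAPLN2 and HAPLN4, the link proteins of brain, had 0 counts in every library. In the ACAN pair both genes were called lower. In the VCAN pair HAPLN1 fell while VCAN did not pass the test. The ratio of HAPLN1 to VCAN, in CPM per kb, was 2.33, 2.32 and 2.88 in the control libraries and 1.354, 1.306 and 1.457 in the KO libraries. This ratio, which was chosen after the values were seen, was 1.82-fold lower in KO cells and did not overlap between groups (log2 difference -0.86, exact two-sided permutation p = 0.1, the smallest possible).

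**Figure D3:**
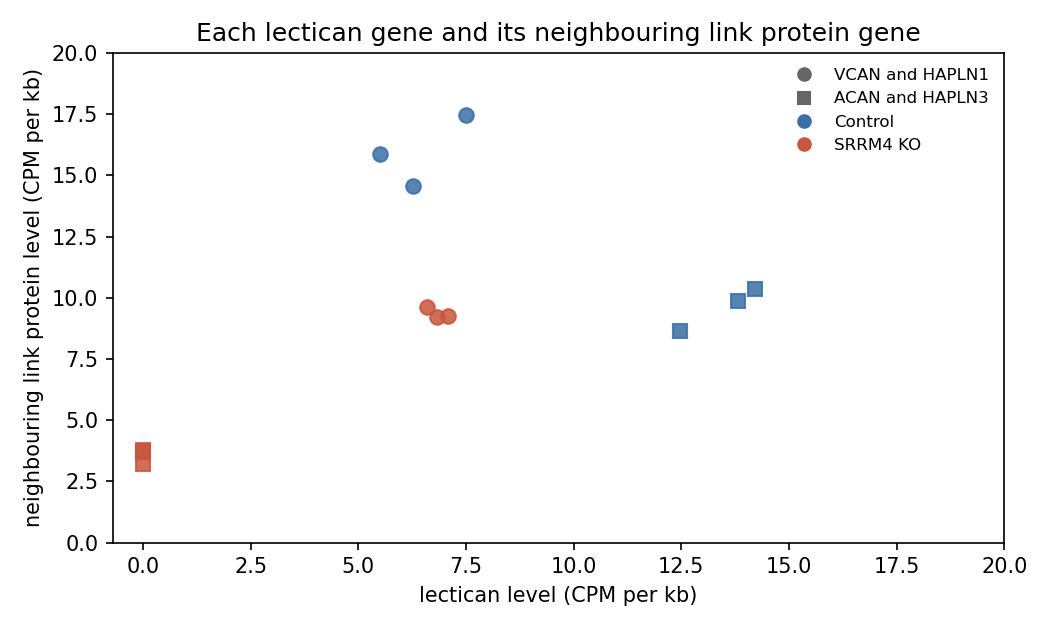
Level of a lectican gene (horizontal) against that of its neighbouring link protein gene (vertical), both in CPM per kb, with 1 point per library, for VCAN and HAPLN1 (circles) and ACAN and HAPLN3 (squares). The KO points of ACAN and HAPLN3 lie at 0 on the horizontal axis and at 3.20 to 3.79 on the vertical axis, and the KO points of VCAN and HAPLN1 lie under the control points at a similar VCAN level.

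The hyaluronan synthases were low in both groups and none passed the test. HAS2 (ENSG00000170961, chr8:121612116-121641390, minus strand), the main synthase of connective tissue cells, had 2.58, 3.57 and 3.05 CPM in the control libraries and 2.42, 2.05 and 2.04 CPM in the KO libraries. The KO values lay just under the lowest control value. Its log2 fold change was -0.50 (SE 0.28, 95% interval -1.10 to 0.10, edgeR adjusted p = 0.176). The antisense gene HAS2-AS1 shares 201 exonic bases with HAS2 and had at most 6 counts in a library.

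HAS3 (ENSG00000103044, chr16:69105564-69118719, plus strand), which makes shorter chains, had 6.46, 5.89 and 5.74 CPM in the control libraries and 7.09, 7.02 and 8.54 CPM in the KO libraries. Here each KO value was above the control values. The log2 fold change was 0.32 (SE 0.17, 95% interval -0.05 to 0.70, edgeR adjusted p = 0.154). HAS3 shares 365 exonic bases, 6.90% of its exons, with CHTF8 on the other strand, which had 1484 to 1814 counts per library, so part of the HAS3 counts may be reads of CHTF8 or the reverse. HAS1 (ENSG00000105509, chr19:51713112-51723994, minus strand) had 0, 0 and 2 counts in the control libraries and 6, 3 and 0 in the KO libraries, too few to test.

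Summed over the 3 synthases, the level was 1.89 ± 0.0708 CPM per kb in control cells and 2.01 ± 0.119 in SRRM4 KO cells. These ranges overlapped (log2 difference 0.09, exact two-sided permutation p = 0.2, smallest possible 0.1). HAS2 made up 33.6%, 43.4% and 39.3% of this sum in the control libraries and 28.4%, 26.2% and 23.2% in the KO libraries. The HAS2 share did not overlap between groups (38.7 ± 4.92% against 25.9 ± 2.59%, exact two-sided permutation p = 0.1). The HAS3 share of 60.6 ± 5.19% against 71.1 ± 5.53% did overlap (p = 0.2, exact two-sided permutation test).

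On the scale of CPM per kb, the order of the 9 genes in control cells was HAPLN1 (15.96), ACAN (13.5), HAPLN3 (9.62), VCAN (6.43), HAS3 (1.14), HAS2 (0.732), BCAN (0.284), HAS1 (0.0133) and NCAN (0.00878). The control ranges of neighbours in this order did not overlap, except for HAS1 and NCAN. In SRRM4 KO cells the order was HAPLN1 (9.36), VCAN (6.83), HAPLN3 (3.57), HAS3 (1.43), HAS2 (0.519), BCAN (0.136), HAS1 (0.0584), NCAN (0.00867) and ACAN at 0. There BCAN overlapped with HAS1, HAS1 with NCAN, and NCAN, at 0 counts in KO replicates 2 and 3, with ACAN. VCAN moved up past HAPLN3, which kept its place, and ACAN went from the second place to the last.

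Other genes near ACAN did not share its loss of counts. Within 500 kb of ACAN, 9 of 33 annotated genes were tested. HAPLN3 was called lower and FANCI, a DNA crosslink repair gene, was called higher (45.5 to 106 CPM, log2 fold change 1.22, SE 0.089, edgeR adjusted p = 4.5e-08). MFGE8, the secreted lactadherin gene on the other side of HAPLN3, fell by 0.38 on the log2 scale (SE 0.075, edgeR adjusted p = 0.000848) and stayed at 534 CPM in KO cells. ISG20, an interferon-induced exonuclease gene on the other side of ACAN, was 4.97 ± 1.29 CPM in control cells and 2.49 ± 0.157 in KO cells, a log2 fold change of -0.998 (SE 0.26, edgeR adjusted p = 0.00538) that lay just inside the threshold. It was called without control replicate 1 (-1.18), KO replicate 1 (-1.01) or KO replicate 2 (-1.05), and also with upper-quartile normalization (-1.03), with at least 10 counts in every library (-1.02) and with protein-coding genes only (-1.01). AEN and ABHD2, named after their values were seen, rose by 0.84 and 0.44. The median log2 fold change was 0.19 over the 9 neighbours and 0.07 over the 522 tested genes of chromosome 15.

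**Figure D4:**
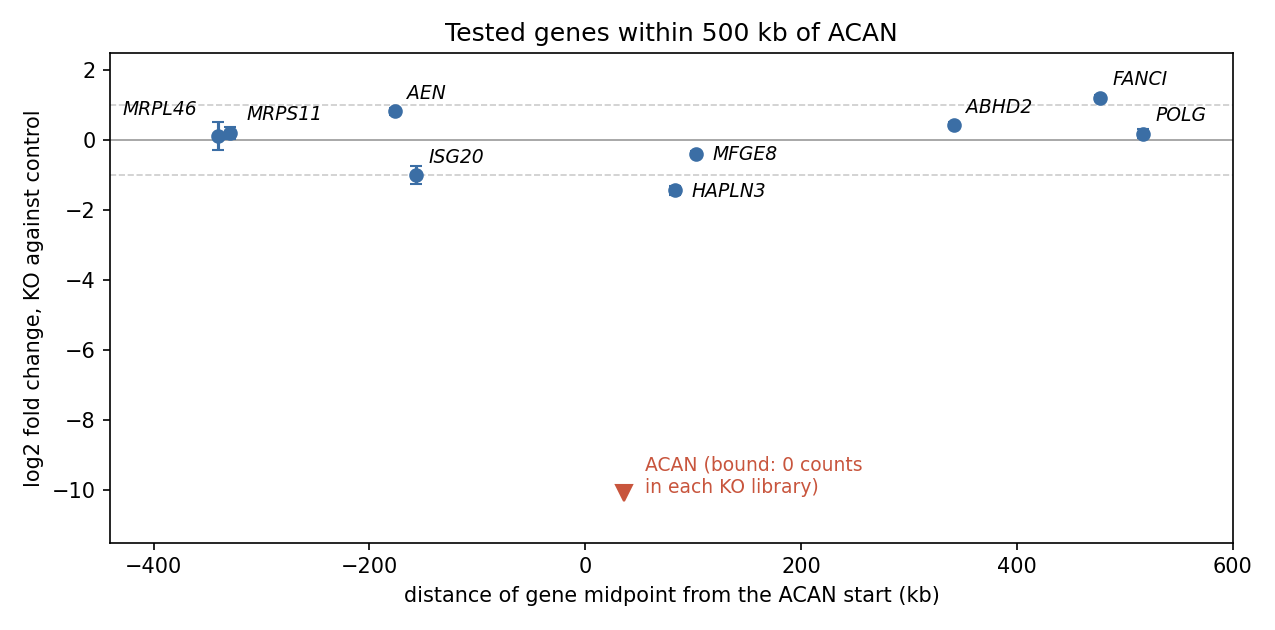
Log2 fold change (SRRM4 KO minus control) of the tested genes within 500 kb of ACAN, by distance of the gene's midpoint from the ACAN start in kb, with error bars of 1 SE and dashed lines at the fold threshold. The triangle marks the bound for ACAN (at least 1080-fold lower), far under HAPLN3 (-1.43), and FANCI (1.22) is above the upper line.

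The genes whose pattern over the 6 libraries was most like that of ACAN, by the root mean square difference of centred log2 CPM, were GYG2 (1.40), ELN (1.41) and TCEAL7 (1.63). Each of these also had 0 counts in the 3 KO libraries, which this measure favours because ACAN has 0 counts there. A prior count of 1 was added before the log2, so these distances also depend on the control level. GYG2, which primes glycogen, was at least 155-fold lower, ELN, the elastin gene, at least 153-fold lower, and TCEAL7, a transcription elongation factor like gene, at least 114-fold lower. Their control levels were 21.2, 20.9 and 15.5 CPM. For HAPLN3 the nearest genes were PRKAR1B (0.0611), MMP15 (0.0706) and NPM2 (0.0741), with log2 fold changes of -1.33, -1.41 and -1.51. This likeness is a description over 6 libraries.

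The other genes of the pathway were followed in 8 lists of 86 genes, of which 63 were tested. Of these, 4 were called higher (6.35%) and 11 lower (17.5%), where the shares over all genes were 5.45% and 7.14%, and the median log2 fold change was -0.15 against -0.01. At any fold, 19 passed the test as higher (30.2%) and 24 as lower (38.1%), where the shares over all genes were 20.7% and 20.9%. The lists were chosen with results of these data known and no test of a list was made.

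Among hyaluronan receptors and binding proteins, 6 of 14 genes were tested, with 1 called higher, 2 called lower and a median of -0.36. At any fold 3 passed as higher and 2 as lower, the further risers being HMMR (log2 0.85) and LAYN (log2 0.21), named after their values were seen. CD44, the main cell surface receptor of hyaluronan, had 3184 to 3262 counts in the control libraries and 8601 to 9145 in the KO libraries. It rose by 1.39 on the log2 scale (SE 0.075, edgeR adjusted p = 1.59e-09), from 147 ± 4.09 to 386 ± 8.69 CPM. PTX3, a pentraxin that helps to crosslink hyaluronan, fell from 48.7 to 18.0 CPM (log2 -1.44, edgeR adjusted p = 5.34e-08). ITIH3, a heavy chain that is transferred onto hyaluronan, fell from 10.4 to 1.25 CPM (log2 -3.05, edgeR adjusted p = 2.74e-07).

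Among genes of hyaluronan breakdown, 7 of 10 were tested, with 1 called lower, 0 called higher and a median of -0.02. At any fold, 3 passed as higher and 1 as lower, where the shares over all genes were 20.7% and 20.9%. DESeq2 called 0 higher. CEMIP, which is needed for hyaluronan depolymerization in fibroblasts, had 1906, 1821 and 2082 counts in the control libraries and 75, 80 and 48 in the KO libraries. All KO libraries were far under the controls. CEMIP fell by 4.90 on the log2 scale (SE 0.15, edgeR adjusted p = 3.13e-12), or 29.9-fold, from 88.6 ± 4.44 to 2.94 ± 0.662 CPM.

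The enzymes that supply UDP-sugars for the chain were all tested, and of the 7 genes 0 were called by edgeR in either direction. At an adjusted p under 0.05, 3 were higher and 2 lower. DESeq2 also called 0. UGP2, which makes UDP-glucose, fell by 0.60 (edgeR adjusted p = 9e-05). The other genes of this list were named after their values were seen. UGDH, which makes UDP-glucuronate, fell by 0.30. Of the 5 genes of the UDP-N-acetylglucosamine route, UAP1, GNPNAT1 and PGM3 rose by 0.75, 0.41 and 0.34 on the log2 scale. GFPT1 and GFPT2, which start that route, had log2 fold changes of -0.09 and 0.21 and did not pass (edgeR adjusted p = 0.5 and 0.664).

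Aggrecan and versican carry chondroitin sulfate. Of the 14 genes of chondroitin chain synthesis, all tested, 3 were called lower and 1 higher, with a median of 0.10. At any fold 4 passed as lower and 4 as higher, and B3GAT3, SLC35D1 and CHSY1, named after their values were seen, rose by 0.82, 0.60 and 0.37 on the log2 scale. CHPF, a chondroitin polymerizing factor, fell from 657 to 284 CPM (log2 -1.21, edgeR adjusted p = 2.32e-08). CHSY3, a chondroitin synthase, fell from 52.0 to 19.4 CPM (log2 -1.42, edgeR adjusted p = 7.08e-08). The xylosyltransferases, which start the chain, went in opposite directions. XYLT1 fell from 59.1 to 24.1 CPM (log2 -1.29, edgeR adjusted p = 3.54e-07) and XYLT2 rose from 33.7 to 68.9 CPM (log2 1.03, edgeR adjusted p = 5.1e-06). The call of XYLT2 was lost without control replicate 1 (0.92), without KO replicate 1 (0.95) and with upper-quartile normalization (0.9999).

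Of the genes of chondroitin sulfation and epimerization, 14 of 16 were tested and 0 were called by edgeR, with a median of -0.22. At an adjusted p under 0.05, 7 were lower and 2 higher (20.9% and 20.7% of all tested genes). The 7 lower genes were CHST11, UST, CHST3, DSEL, PAPSS1, SLC26A2 and PAPSS2, with log2 fold changes from -0.73 to -0.28. The 2 higher genes were the sulfotransferase CHST7 (log2 0.76) and the sulfate donor transporter SLC35B2 (log2 0.47). All 9 were named after their values were seen. With genes under the count filter included, edgeR and DESeq2 each called 1 lower, CHST15, which had 9, 8 and 23 counts in the control libraries and 4, 1 and 1 in the KO libraries. IMPAD1, the phosphatase that clears the byproduct of sulfation and the gene of highest mean CPM over the 6 libraries in the list, was at 294 CPM in control cells and 307 in KO cells (log2 0.06, edgeR adjusted p = 0.617).

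**Figure D5:**
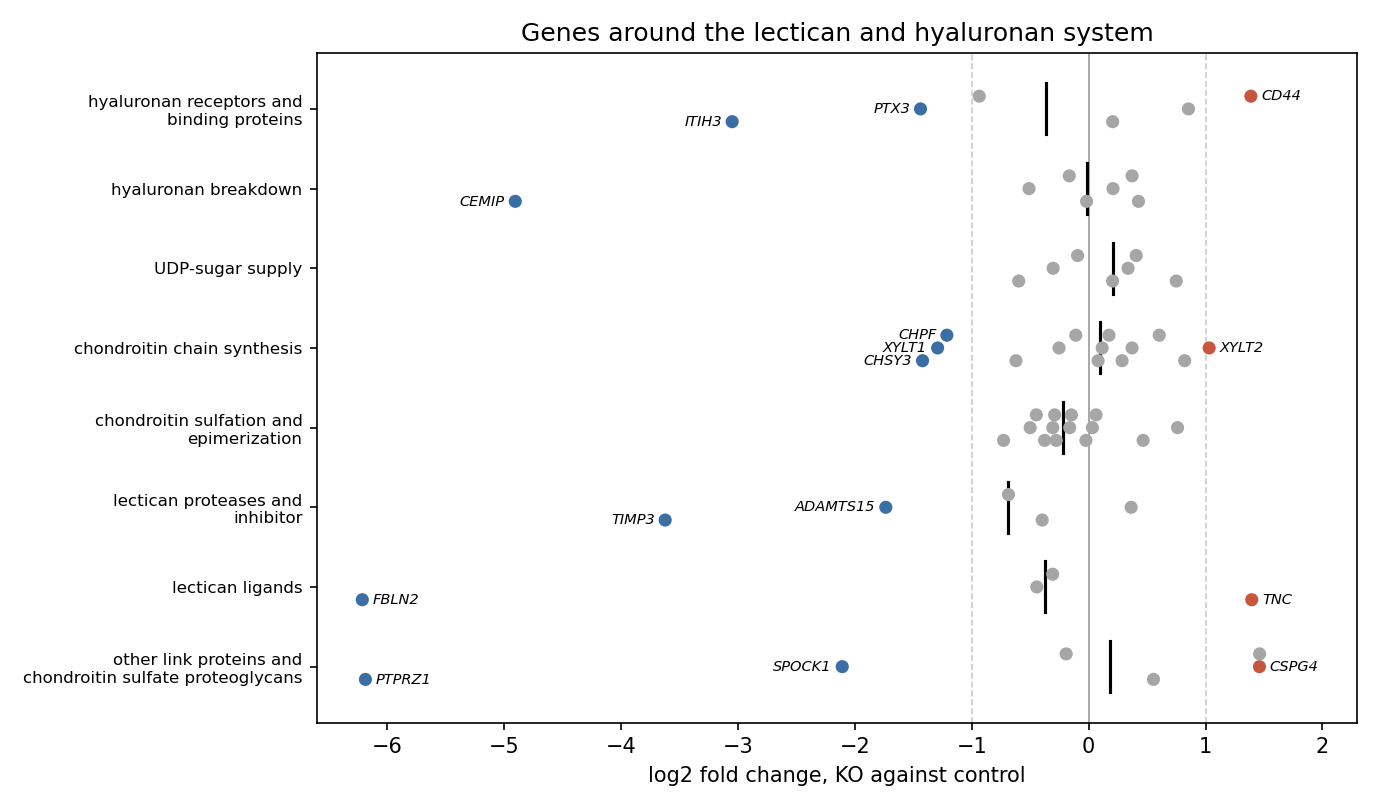
Log2 fold change (SRRM4 KO minus control) of every tested gene of the 8 pathway lists, with 1 point per gene, blue where called lower, red where called higher, grey otherwise, and a black bar at the median of each list. CEMIP, TIMP3, FBLN2 and PTPRZ1 lie farthest below 0, and CD44, TNC and CSPG4 farthest above 0 among called genes.

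Of the proteases that cut lecticans and their inhibitor, 5 of 8 were tested, with 2 called lower, 0 higher (also by DESeq2) and a median of -0.69. At any fold 3 passed as lower and 1 as higher. TIMP3, the tissue inhibitor of these aggrecanases, had 6700 to 6930 counts in the control libraries and 560 to 622 in the KO libraries. It fell by 3.62 on the log2 scale (edgeR adjusted p = 8.58e-13), or 12.3-fold. The protease ADAMTS15 fell from 20.1 to 6.04 CPM (log2 -1.73, edgeR adjusted p = 9.43e-07), and ADAMTS1 rose from 171 to 220 CPM (log2 0.36, edgeR adjusted p = 0.00179). ADAMTS5, a major aggrecanase named after its values were seen, fell from 118 to 73.3 CPM (log2 -0.69, edgeR adjusted p = 7.27e-05), under the fold threshold. Inhibitor and proteases stand in this list together, and its median says nothing of the balance between them.

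Among the lectican ligands, 4 of 5 genes were tested, with 1 called higher, 1 called lower and a median of -0.38. At any fold 3 passed as lower and 1 as higher. TNC, tenascin-C, rose from 98.1 ± 0.908 to 258 ± 24.6 CPM (log2 1.40, edgeR adjusted p = 7.74e-09). FBLN2, a fibulin that binds aggrecan and versican, had 276, 270 and 334 counts in the control libraries and 3, 1 and 8 in the KO libraries. It fell by 6.21 on the log2 scale (edgeR adjusted p = 2.24e-09), and by 7.21 without KO replicate 3. FBN1, fibrillin-1, had the highest CPM of the ligands and fell by 0.44 (edgeR adjusted p = 0.000327), from 2248 to 1654 CPM.

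Of the other link proteins and chondroitin sulfate proteoglycans, 6 of 12 were tested, with 1 called higher, 2 lower and a median of 0.18. At any fold 2 passed in each direction. Without control replicate 1, 2 were called higher. CSPG4, the NG2 proteoglycan, rose from 226 to 623 CPM (log2 1.46, edgeR adjusted p = 1.9e-08). SPOCK1, testican-1, fell from 150 to 34.7 CPM (log2 -2.11, edgeR adjusted p = 5.04e-09). PTPRZ1, a receptor phosphatase that carries chondroitin sulfate and is known from glia, had 387, 280 and 332 counts in the control libraries and 5, 6 and 3 in the KO libraries (log2 -6.19, edgeR adjusted p = 2.31e-10).

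Aggrecan is a marker of cartilage, so the other chondrocyte markers were measured beside it. Of 14, 7 were over 1 CPM, and the summed level of all 14 was 66.6 to 75.6 CPM in the control libraries and 59.1 to 62.6 CPM in the KO libraries. COL2A1 had at most 8 counts in a library, COMP had 5 counts in 1 control library and 0 in the others, and COL9A1 had 0 in all. Of the 8 tested, COL11A1 and COL9A3 were called lower (log2 -3.18 and -3.68), where 7.14% of all tested genes were called lower and 5.45% higher. SOX9, a transcription factor that drives ACAN in cartilage, was called higher (log2 1.65, from 5.96 ± 1.71 to 18.7 ± 1.55 CPM, edgeR adjusted p = 3.69e-06). SOX6, a partner of SOX9, fell from 41.6 to 22.4 CPM (log2 -0.89), and MATN3 from 7.92 to 5.07 CPM (log2 -0.64), both under the fold threshold. At any fold 4 passed as lower and 1 as higher, where the shares over all genes were 20.9% and 20.7%.

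The mesenchymal stromal markers differed as well. Of 8, THY1, PDGFRB, COL1A1 and COL1A2 were called lower (log2 -2.43, -2.14, -1.23 and -1.70), where 7.14% of all tested genes were called lower and 5.45% higher. At any fold, ENG and LUM also fell (log2 -0.34 and -0.86), while NT5E and VIM rose (log2 0.52 and 0.36). The summed level, most of it from COL1A1 and COL1A2, was 40992 to 45035 CPM in the control libraries and 16938 to 18883 in the KO libraries. Of 11 neural and glial markers, 3 were over 1 CPM, MBP was called lower (log2 -4.25), and the sum was 14.9 to 18.9 CPM in the control libraries and 3.98 to 5.32 in the KO libraries. SOX10, OLIG1 and OLIG2 had at most 4 counts in a library. The 11 blood, endothelial and epithelial markers summed to 22.8 to 23.9 CPM in the control libraries and 19.6 to 22.4 in the KO libraries. CD14 made up most of that sum (16.8 CPM in control cells and 15.9 in KO cells), CD34 had 66 to 93 counts per library, and PTPRC, the leukocyte antigen CD45, at most 2. The part of these differences in the values of ACAN, HAPLN1 and HAPLN3 was not tested.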

How the data were processed

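RNA of UE7T-9 control and SRRM4 KO cells was measured by mRNA-seq (non-stranded, NovaSeq), with 3 libraries each, grouped by title and genotype. The authors deposited raw counts per gene without normalization. The submitters' processing notes list HISAT2 2.0.5, featureCounts 1.5.0-p3 and DESeq2 without roles, and the genome build is not given in the sources used here. Gene IDs and coordinates were checked against GENCODE release 29 (GRCh38): 58735 IDs were found, 58724 with identical start and end. Reads shared by overlapping genes may be lost or assigned to either.

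Counts were tested with edgeR 4.0.16 in R 4.3.3 (TMM, filterByExpr, quasi-likelihood test, Benjamini-Hochberg adjustment), without a replicate block. CPM use TMM-scaled library sizes, and CPM per kb divide them by the exonic length in the table. Sums and shares were compared by exact two-sided permutation tests, which cannot go below 0.1. The authors state that experiments were repeated, but neither the labels nor the methods tie each library to its own culture, so p-values measure only the spread between these libraries, which may be technical. No batch is given. No pair of libraries agreed within sampling noise.

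The 9 genes and all lists were chosen with earlier results of these data known. Named genes are the 9, SRRM4, in each pathway list up to 4 called genes per direction and the most abundant gene, the called and adjacent protein-coding neighbours of called genes, and the 3 protein-coding genes nearest in pattern to each. A gene that the rule takes is not reported here. As alternatives, the counts were scaled by DESeq2's size factors or the upper quartile, left unfiltered or held to a minimum of 10 counts per library, and refitted with DESeq2 1.42.0. Further alternatives were a replicate block, protein-coding genes only, glmTreat, no fold threshold, each library left out, no length scaling, and neighbours within 1 Mb. Procedures were tested on simulated data. Flow cytometry, immunostaining and cell assays were not analysed here.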

Additional observations from a re-analysis of the deposited data

How the results depend on the processing

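ACAN and HAPLN3 were called lower and 0 of the 9 genes higher under every normalization, filter, tool and left-out library that gave a value, except that ACAN has no value with at least 10 counts in every library, where BCAN was called instead (log2 -1.08, adjusted p = 0.0279, fewer genes tested). With no fold threshold HAPLN1 makes 3. Leaving out each library gave -1.50 to -1.36 for HAPLN3, -0.83 to -0.70 for HAPLN1, -1.34 to -0.85 for BCAN, -0.61 to -0.38 for HAS2, 0.22 to 0.37 for HAS3 and -0.0147 to 0.21 for VCAN, whose direction turned without control replicate 3 (adjusted p = 0.93). The cause was not tested. The ratio of HAPLN1 to VCAN, chosen after seeing the data, was -0.92 to -0.76.

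The replicate numbers did not pair the libraries (correlations of same-numbered deviations -0.05, 0.08 and -0.04). With a replicate block 842 genes were called higher and 1093 lower, against 836 and 1096, and the log2 fold change of BCAN was -1.09 (adjusted p = 0.104). The block changed no call among the 9 genes. Upper-quartile normalization moved the median of all genes to -0.04 from -0.01. Within 1 Mb of ACAN, 4 of 15 tested genes were called higher and 1 lower, against 1 and 1 of 9 within 500 kb. Over all tested genes the shares were 5.45% higher and 7.14% lower. Genes such as NCAN and HAS1, at a few counts, are limited by depth.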
